A study of Mus musculus with 20 samples.

Results

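The proximal tubule reclaims most of what the glomerulus filters, through transporters, endocytic receptors and peptidases in its brush border and basolateral membrane. The 42 genes described here encode these proteins. They were chosen by name for what they are known to do, with no measured value in the rule, though earlier results of these data were known. They are 42 of the 24411 genes in the count table. Of these, 41 passed the filter on low counts in every comparison of genotype, sex and kidney size, and Slc36a2, a proline and glycine transporter at 0 to 6.24 CPM (its count scaled by library size), passed only in the fit of the sex-by-genotype term.

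Bulk RNA from the kidneys of 20 mice was sequenced at P125, each mouse giving 1 library, and the 4 groups held 5 mice each. Male and female mutants carried Pkd2 fl/fl; Pax8 rtTA; TetO Cre, a genotype by which doxycycline (DOX) switches on Cre through the Pax8 promoter along the whole nephron, proximal tubule included. Male and female controls, labelled only as Control, were Cre-negative, and all 4 groups received DOX at 50 mg/kg from P27 to P29. The mutants are thus a model of Pkd2 loss in tubule epithelium induced after kidney development. Each mouse has a name made of its group and a number in the order of the labels (female mutant 4), and values of a group are listed in that order. Nothing in the labels pairs mice across groups other than the litter, of which there were 3.

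In proximal tubule cells, apical sodium-coupled carriers use the sodium gradient to take up glucose, amino acids, phosphate, sulfate and carboxylates, and basolateral carriers pass them on to the blood. Megalin and cubilin bind filtered protein and bring it into endosomes, and peptidases on the microvilli cut peptides into amino acids for uptake. Several of these genes are known to differ between male and female mouse kidneys, and loss of brush border transport is a known feature of injured tubules.

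Libraries held 11307741 to 19324073 counts. Female mutant 4 stood apart, with 14850 genes detected and 76 genes at exactly 1 count, where the other 19 libraries had 16776 to 17724 and 708 to 859. Counts of members called are also given without it, as are values of some, but not all, single members that moved with it. Pkd2 itself fell in male mutants (log2 fold change -1.32, SE 0.08, adjusted p = 2.18e-05) and in the joint comparison of all mutants (-1.06, SE 0.12, adjusted p = 9.70e-06), and in females the change was -0.80 (SE 0.18, adjusted p = 0.0276), and every mutant lay below every control of its sex. The kidney weight as a percentage of body weight (KBW) was 1.22 to 2.15% in male mutants, 0.836 to 1.46% in female mutants, 0.599 to 0.896% in male controls and 0.555 to 0.672% in female controls. The 10 proximal tubule markers that are not among the 42 genes, such as Slc34a1 and Aqp1, summed to 30306 to 33097 CPM in male controls, 20837 to 31893 in male mutants, 18727 to 24904 in female controls and 10620.3 to 22211 in female mutants, so RNA of these markers was present in every mouse. In whole kidneys, fewer proximal tubule cells and less RNA of a gene per cell cannot be told apart.

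Together the 42 genes took 1.53 to 1.65% of all counts in male controls and 1.37 to 1.70% in male mutants, and 1.41 to 1.62% in female controls and 1.15 to 1.72% in female mutants. Female mutant 4 had the highest share of all 20 mice. The mutants therefore spanned a wider range than the controls of their sex, and the ranges overlapped.

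Per kilobase of annotated exon, the level in male controls was highest for Slc7a13, a cystine carrier subunit, at 666 CPM per kb, followed by the peptidase Ggt1 at 374 and the organic anion and phosphate transporter Slc17a1 at 327. In female controls the leading levels were those of the neutral amino acid transporter Slc6a18 at 263 CPM per kb and of Slc7a12, a carrier of the same family as Slc7a13, at 235, with Slc7a13 at only 0.985. Averaged over all mice, the least abundant member after Slc36a2 was Slc26a6, an oxalate and chloride exchanger, at 1.59 CPM per kb in male controls and 1.66 in female controls. Lengths came from all exons in GENCODE M21 and not from the isoform that the kidney uses, which sets the scale of these levels. Whether reads were counted by strand is not given in the sources used here, and exons of Slc1a1, Slc3a1, Slc13a2, Slc5a2, Slc5a10 and Abcb1a share 31.9, 26.5, 26.2, 20.6, 16.6 and 10.1% of their bases with a gene on the opposite strand, so values of these members may hold reads of that partner. Abcb1a also has a close paralog, Abcb1b, with which some reads could be shared.

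HNF4 transcription factors are known regulators of proximal tubule genes, so the promoters of the members were searched for their motif. RefSeq promoters on GRCm38.p6, 250 bases before to 50 after a start site, were at hand for 32 of the 42 members. The HNF4 core CAAAGTCCA, on either strand, lay in 1 of the 32 (3.13%) and in 0.555% of all genes with an entry. The 100 bases before the start site are shown for this member, Slc3a1, the heavy chain of the cystine carrier, with the HNF4 core in capitals. A match is a description of the letters in the window and not a bound site.
Slc3a1 (GRCm38.p6, plus strand, chr17:85028247-85028346): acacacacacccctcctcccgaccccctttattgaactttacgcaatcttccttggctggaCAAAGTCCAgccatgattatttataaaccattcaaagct

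Mutant and control kidneys were compared to ask which transport genes respond to Pkd2 loss. Members at a Benjamini-Hochberg adjusted p under 0.01 in edgeR's quasi-likelihood test are called differentially expressed genes (DEGs) here. In the joint comparison, which pooled both sexes, 9 of 41 members were DEGs, 1 higher and 8 lower, where 15.9% of all genes tested were DEGs, 10.0% higher and 5.86% lower. The sulfate transporter Slc13a1 rose, and the carboxylate transporters Slc13a2, Slc13a3 and Slc5a8, the peptide transporter Slc15a2, the glutamine transporter Slc38a3, the vitamin C transporter Slc23a1, the sugar transporter Slc5a10 and the actin bundler Vil1 fell. The change was below 0 on the log2 scale in 32 of 41 members, with a median of -0.17 beside -0.01 over all genes. Without female mutant 4, 14 members were DEGs, 1 higher and 13 lower, beside 21.0% of all genes, and Slc5a1, Slc5a2, Slc7a7, Slc3a2 and Slc1a1 were added to the 8 that fell. No member had every mutant above or below every control in both sexes pooled, as 0.979% of all genes did in the higher and 0.275% in the lower direction.

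In males alone, 7 of 41 members were DEGs, 2 higher and 5 lower, where 8.46% of all genes were DEGs, 5.25% higher and 3.20% lower. Every male mutant lay above every male control for 2 members and below for 7, beside 8.83% and 6.45% of all genes. The count of DEGs fell to 3 without male control 4, and the share of all genes to 1.32%. The 3 were Slc38a3, Slc13a2 and Slc13a3. Male controls 4 and 5 were each the only male control of their litter, and without male control 5 the count was 6, beside 5.22% of all genes. With all 10 males, DESeq2's Wald test called 13 members, 4 higher and 9 lower, beside 14.3% of all genes. Beyond those called by edgeR these were Abcc4 and Anpep, which were higher, and Slc5a8, Slc5a10, Slc6a18 and Slc7a13, which were lower. In females alone no member was a DEG by edgeR, where 0.637% of all genes were, 0.457% higher and 0.180% lower. An unadjusted p under 0.05 was found for 14 members, beside 20.6% of all genes. DESeq2's Wald test called 4, Slc13a1 higher and Slc13a3, Slc5a8 and Slc7a12 lower, beside 6.43% of all genes. Without female mutant 4, edgeR called 4 in females, Slc13a1 higher and Slc5a8, Slc13a3 and Slc7a7 lower, beside 5.93% of all genes. The median change of the members was -0.12 in males and -0.25 in females, and 27 and 37 of 41 lay below 0. Groups did not overlap in females for 1 member in the higher and 3 in the lower direction, beside 3.60% and 3.54% of all genes.

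**Figure D1:**
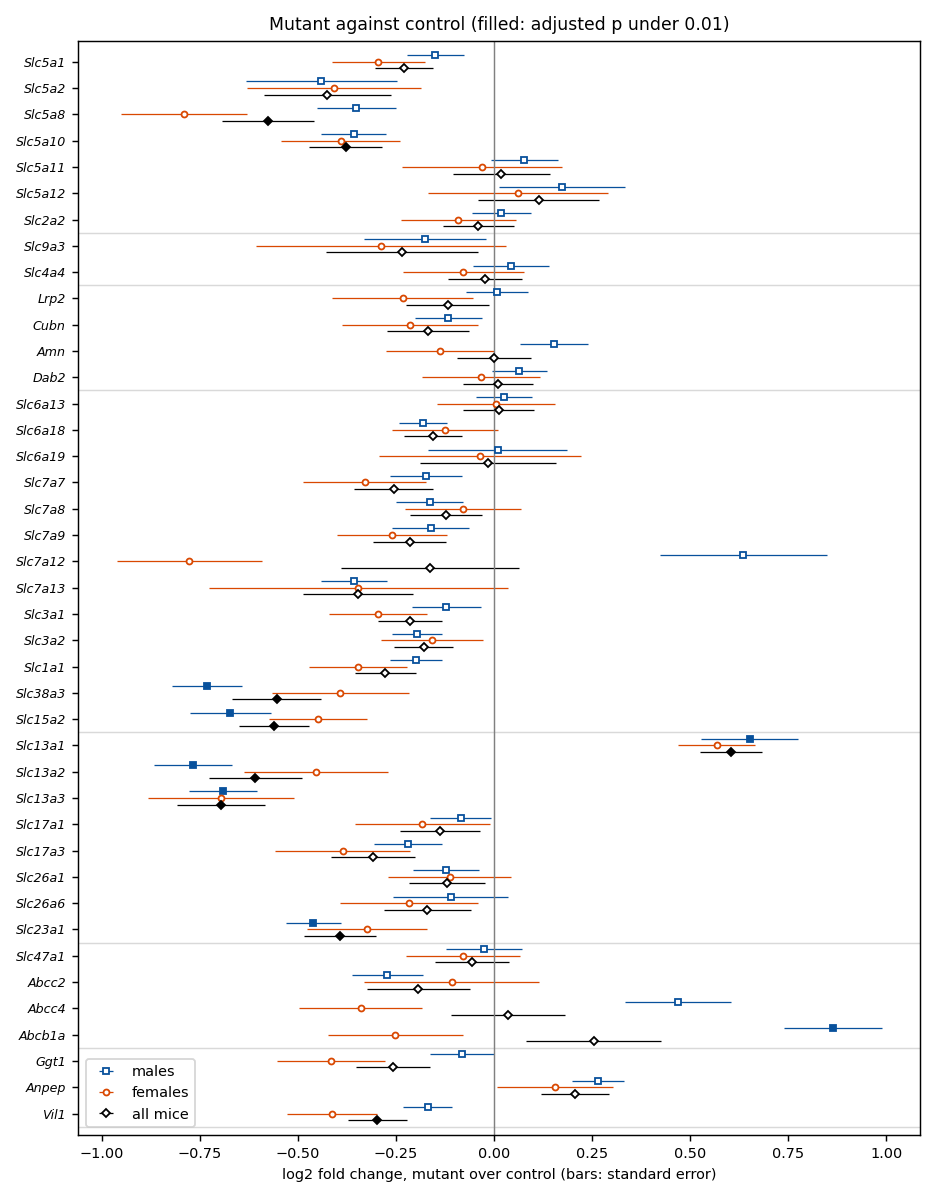
Log2 fold change of mutants over controls for the 41 members tested, in males (squares), females (circles) and all mice (diamonds), with the standard error as a bar and members grouped by role from sugar carriers at the top to brush border enzymes at the bottom. Filled symbols mark an adjusted p under 0.01, which 7 members had in males, none in females and 9 in all mice, and 32 of 41 diamonds lie to the left of 0.

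The sulfate and carboxylate transporters of the Slc13 family held the largest changes in both directions in the joint comparison. Slc13a1, the apical sodium-sulfate cotransporter, measured 448, 449, 485, 397 and 385 CPM in male controls and 887, 538, 726, 583 and 602 in male mutants, and 413, 411, 363, 399 and 369 in female controls and 560.2, 597, 582, 623 and 480.3 in female mutants. Every mutant exceeded every control of its sex, and male mutants 1 and 3 were the highest of all. It was the only member to rise in the joint comparison, by 51.9% (log2 fold change 0.60, SE 0.08, adjusted p = 3.49e-05), and its log2 fold change was 0.65 among males (adjusted p = 0.00473) against 0.57 among females (adjusted p = 0.0124). The joint call held in all 20 fits that left out 1 mouse, and the male call in 3 of 10.

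Slc13a3, the basolateral dicarboxylate transporter, measured 591, 535, 663, 578 and 540.0 CPM in male controls and 329, 404, 317, 344 and 392 in male mutants, and 641, 645, 526.3, 489 and 713 in female controls and 336, 319, 209, 479 and 505 in female mutants. The male groups were far apart, and among females mutant 5 lay within the range of the controls, mutant 4 just below it and the other 3 far below. In the joint comparison it fell by 38.2% (log2 fold change -0.69, SE 0.11, adjusted p = 0.000198), with -0.69 among males (log2 fold change, adjusted p = 0.000787) against -0.70 among females (adjusted p = 0.0566). Slc13a2, the apical citrate and dicarboxylate transporter, measured 33.6, 35.9, 31.7, 35.0 and 35.2 CPM in male controls and 18.5, 24.1, 17.0, 17.3 and 22.8 in male mutants, and 42.9, 36.7, 34.5, 55.9 and 70.7 in female controls and 34.0, 28.4, 20.1, 41.1 and 48.6 in female mutants. No male mutant reached the lowest male control, and in females mutants 1 to 3 lay below all controls while mutants 4 and 5 lay within their range. It fell by 34.4% in the joint comparison (log2 fold change -0.61, SE 0.12, adjusted p = 0.000898) and by 41.3% in males (log2 fold change -0.77, SE 0.10, adjusted p = 0.000819).

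**Figure D2:**
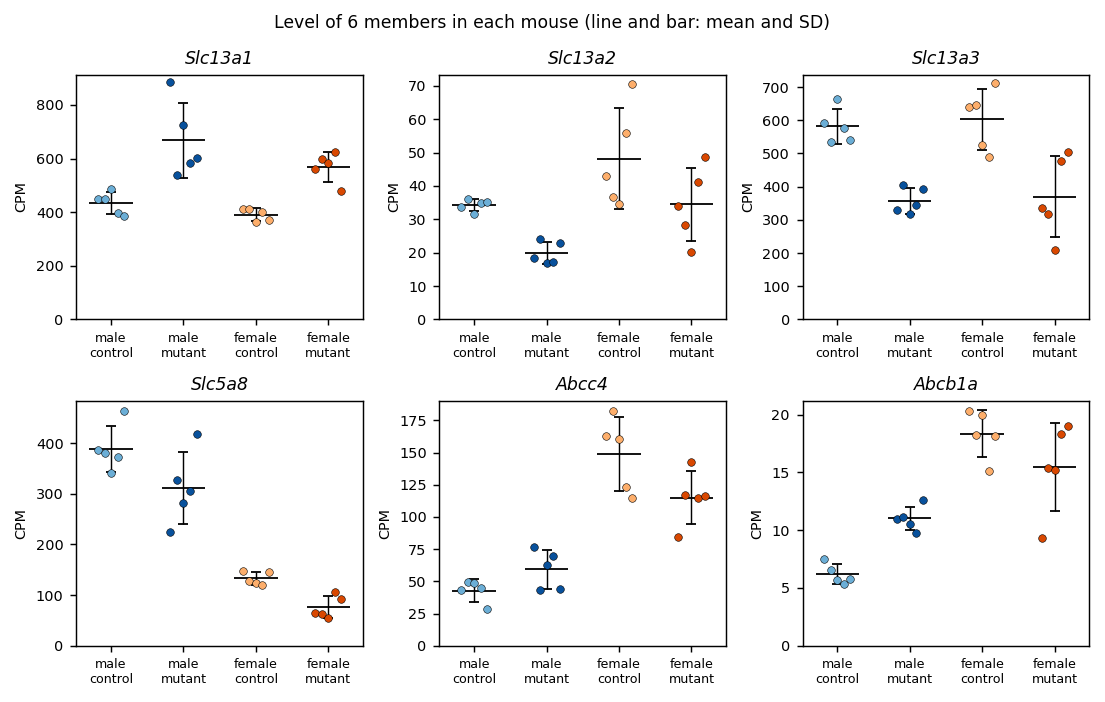
CPM of Slc13a1, Slc13a2, Slc13a3, Slc5a8, Abcc4 and Abcb1a in each of the 20 mice, by sex and genotype, with the mean as a line and the SD as a bar (n = 5 per group) and axes that start at 0. Slc13a1 is higher in all mutants of each sex, Slc13a2 and Slc13a3 are lower in all male mutants, and Slc5a8 separates the sexes.

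Of the other 5 members that carry sulfate, organic anions or vitamin C, Slc23a1 fell. Slc23a1, the apical sodium-ascorbate cotransporter, ranged from 245 to 307 CPM in male controls and 176 to 235 in male mutants, with no overlap, against 289.9 to 419.9 in female controls and 159.5 to 377 in female mutants, and fell by 23.8% in the joint comparison (log2 fold change -0.39, SE 0.09, adjusted p = 0.00394) and by 27.3% in males (log2 fold change -0.46, SE 0.07, adjusted p = 0.00173). Slc17a1, a sodium-phosphate and urate transporter and the most abundant of this role, measured 743, 761, 831, 717 and 822 CPM in male controls and 624.7, 762, 726, 681 and 866 in male mutants, and 382, 367, 341, 416 and 492 in female controls and 356, 351, 211, 451 and 352 in female mutants. Groups of a sex overlapped, and the joint log2 fold change was -0.14 (SE 0.10, adjusted p = 0.354). Its relative Slc17a3 changed by -0.31 (adjusted p = 0.0407), the sulfate exchanger Slc26a1 by -0.12 (adjusted p = 0.396) and Slc26a6 by -0.17 (adjusted p = 0.282), none of which passed the threshold. The changes of Slc17a1, Slc17a3 and Slc26a1 were -0.21 (adjusted p = 0.0918), -0.37 (adjusted p = 0.0106) and -0.20 (adjusted p = 0.0494) without female mutant 4.

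Among 7 sugar and monocarboxylate carriers, 2 fell in the joint comparison and none rose. Slc5a8, a sodium-coupled carrier of lactate and short-chain fatty acids, measured 386, 380.4, 340.1, 372 and 463 CPM in male controls and 224, 326, 281, 306 and 419 in male mutants, and 147, 128, 124, 120.1 and 146 in female controls and 63.6, 63.1, 55.1, 107 and 91.2 in female mutants. Every female mutant lay below every female control, and in males the groups overlapped through male mutant 5. It fell by 32.9% in the joint comparison (log2 fold change -0.58, SE 0.12, adjusted p = 0.00130), with -0.35 among males (log2 fold change, adjusted p = 0.0295) against -0.79 among females (adjusted p = 0.0220), and without female mutant 4 the female change passed the threshold (log2 fold change -0.98, SE 0.10, adjusted p = 0.000627).

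Slc5a10, which carries mannose and fructose, ranged from 88.0 to 126 CPM in male controls, 75.0 to 98.7 in male mutants, 132 to 241 in female controls and 67.0 to 175 in female mutants, and fell by 23.1% (log2 fold change -0.38, SE 0.09, adjusted p = 0.00552), a call that was lost without a litter term (adjusted p = 0.0253) and in 5 of 20 fits without 1 mouse. Slc5a12, a second sodium-lactate cotransporter and the most abundant of this role, measured 467, 570.0, 389, 502 and 467 CPM in male controls and 339.7, 620.2, 565, 609 and 675 in male mutants, and 506, 606, 509, 521 and 413 in female controls and 339, 381, 415, 792 and 764 in female mutants. Mutants lay on both sides of the controls, and the joint log2 fold change was 0.11 (SE 0.15, adjusted p = 0.635). SGLT2, encoded by Slc5a2 and responsible for most glucose uptake, measured 336, 367, 322, 325 and 317 CPM in male controls and 129, 316, 263, 297 and 265 in male mutants, and 325, 439, 338, 321 and 366 in female controls and 184, 185, 192, 415 and 384 in female mutants. All male mutants lay below all male controls, male mutant 1 by far, and in females mutants 1 to 3 lay below every control while mutants 4 and 5 lay within their range. The joint log2 fold change of -0.42 (SE 0.16, adjusted p = 0.0616) did not pass the threshold with female mutant 4 and did without it (log2 fold change -0.55, SE 0.15, adjusted p = 0.00767). Joint changes of the other 3 carriers were -0.23 for Slc5a1 (SGLT1, adjusted p = 0.0287), 0.02 for the inositol carrier Slc5a11 (adjusted p = 0.932) and -0.04 for the basolateral glucose exit carrier Slc2a2 (adjusted p = 0.787), and none of these passed the threshold. With female mutant 4 left out, Slc5a12 was at 0.02, Slc5a11 at -0.10 and Slc2a2 at -0.12, with adjusted p of 0.944, 0.475 and 0.245, while Slc5a1 passed the threshold.

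Of 13 amino acid and peptide transporters tested, 2 fell and none rose. Slc38a3, the basolateral glutamine carrier that feeds ammonia production, ranged from 30.5 to 41.8 CPM in male controls, 20.2 to 24.8 in male mutants, 41.9 to 72.4 in female controls and 21.5 to 49.8 in female mutants. The male groups did not overlap, and it fell by 39.7% in males (log2 fold change -0.73, SE 0.09, adjusted p = 0.000697) and by 31.9% in the joint comparison (log2 fold change -0.55, SE 0.11, adjusted p = 0.00137), with -0.39 in females (adjusted p = 0.236). Slc15a2, the high-affinity peptide transporter PEPT2, ranged from 92.8 to 151 CPM in male controls, 65.0 to 83.9 in male mutants, 154 to 178 in female controls and 78.1 to 154 in female mutants. It fell by 37.2% in males (log2 fold change -0.67, SE 0.10, adjusted p = 0.00181) and by 32.2% in the joint comparison (log2 fold change -0.56, SE 0.09, adjusted p = 0.000168).

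Slc6a18, a glycine and neutral amino acid carrier and the member of this role with the highest mean CPM, measured 804, 868, 845, 833 and 909 CPM in male controls and 733, 756, 768, 719.8 and 799 in male mutants, and 1254, 1069, 1006, 1247 and 1225 in female controls and 958, 1061, 759, 1095 and 1398 in female mutants. Male mutants all lay below male controls by a small margin, female groups overlapped, and neither the male change (log2 -0.18, SE 0.06, adjusted p = 0.0578) nor the joint change (-0.16, SE 0.07, adjusted p = 0.136) passed the threshold by edgeR. Its neighbour in the genome Slc6a19, the main apical neutral amino acid carrier, measured 301, 346, 242, 275 and 262 CPM in male controls and 176, 356, 274, 267 and 370.2 in male mutants, and 208, 281, 213, 218 and 261 in female controls and 174, 128, 148, 378 and 327 in female mutants. In males mutant 1 lay below all controls and mutants 2 and 5 above them, in females mutants 1 to 3 lay below all controls and mutants 4 and 5 above them, and the joint change was -0.01 (SE 0.17, adjusted p = 0.963). The cystine and dibasic amino acid carrier pair Slc3a1 and Slc7a9 changed by -0.21 (adjusted p = 0.0607) and -0.22 (adjusted p = 0.100), and the basolateral light chains Slc7a7 and Slc7a8 and their heavy chain Slc3a2 by -0.26 (adjusted p = 0.0662), -0.12 (adjusted p = 0.358) and -0.18 (adjusted p = 0.0900). The glutamate carrier Slc1a1 changed by -0.28 (adjusted p = 0.0127) and the GABA and betaine carrier Slc6a13 by 0.01 (adjusted p = 0.943). Leaving out female mutant 4 gave Slc6a19 a joint change of -0.17 (adjusted p = 0.390), Slc7a8 one of -0.21 (adjusted p = 0.0203) and Slc6a13 one of -0.05 (adjusted p = 0.702), and brought Slc7a7, Slc3a2 and Slc1a1 past the threshold.

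The endocytic receptors were not DEGs in any comparison of genotype. Lrp2, which encodes megalin, measured 2370.0, 2442, 2169, 2558 and 2665 CPM in male controls and 2114, 2382, 2499.9, 2647 and 3028 in male mutants, and 3419, 3144, 3239, 3143 and 2445 in female controls and 1833, 2370.3, 2329, 3621 and 2763 in female mutants. The groups of each sex overlapped, female mutant 4 held the highest and female mutant 1 the lowest level, and the joint log2 fold change was -0.12 (SE 0.11, adjusted p = 0.446). Its partner Cubn (cubilin) changed by -0.17 (adjusted p = 0.253), the cubilin anchor Amn by 0.00 (adjusted p = 0.994) and the adaptor Dab2 by 0.01 (adjusted p = 0.945). DESeq2 called 0 of 4 in males, in females and jointly. By edgeR none of the 4 had an unadjusted p under 0.05 in these comparisons, beside 33.7, 20.6 and 37.7% of all genes. Those p moved with female mutant 4: without it Lrp2 was at -0.37 in females (unadjusted p = 0.0426, adjusted p = 0.157 by edgeR) and -0.18 jointly (adjusted p = 0.184). Cubn was then at -0.37 in females (unadjusted p = 0.0261, adjusted p = 0.113) and -0.25 jointly (unadjusted p = 0.0151, adjusted p = 0.0465).

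Slc4a4, the basolateral sodium-bicarbonate cotransporter, measured 1262, 1230.1, 996, 1263 and 1227 CPM in male controls and 1015, 1301, 1229.8, 1312 and 1454 in male mutants, and 1155, 1174, 1106, 1102 and 1129 in female controls and 799, 869, 1056, 1455 and 1121 in female mutants. Male control 3 and male mutant 1 were the lowest males, female mutants 1 to 3 lay below all female controls, the groups overlapped in both sexes, and the joint change was -0.02 (SE 0.09, adjusted p = 0.889). The sodium-proton exchanger NHE3, encoded by Slc9a3, ranged from 41.2 to 66.8 CPM in male controls, 36.8 to 64.8 in male mutants, 33.4 to 59.3 in female controls and 17.97 to 69.6 in female mutants, with a joint change of -0.23 (SE 0.19, adjusted p = 0.409). The joint changes were -0.38 for Slc9a3 (adjusted p = 0.106) and -0.09 for Slc4a4 (adjusted p = 0.465) without female mutant 4.

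Among the 4 efflux pumps, Abcb1a rose in males by edgeR, and DESeq2 called both Abcb1a and Abcc4 higher. Abcb1a, which encodes P-glycoprotein, measured 7.48, 6.58, 5.70, 5.36 and 5.81 CPM in male controls and 10.99, 11.2, 10.6, 9.77 and 12.6 in male mutants, and 20.3, 18.3, 20.0, 15.1 and 18.2 in female controls and 9.29, 15.4, 15.2, 18.3 and 19.0 in female mutants. Every male mutant exceeded every male control, and in females mutant 1 lay below all controls while the other 4 lay within their range. It rose by 82.1% in males (log2 fold change 0.87, SE 0.12, adjusted p = 0.00137), with -0.25 in females (SE 0.17, adjusted p = 0.466) and 0.25 jointly (adjusted p = 0.298). Abcc4 (MRP4), a pump for organic anions and cyclic nucleotides, measured 43.3, 49.2, 49.0, 44.6 and 28.2 CPM in male controls and 76.9, 43.6, 63.0, 70.0 and 43.9 in male mutants, and 163, 182, 160.4, 123 and 115 in female controls and 84.5, 117, 143, 115 and 116 in female mutants. Male mutants 1, 3 and 4 exceeded all male controls, female mutants 2, 3 and 5 lay within the range of the female controls and mutants 1 and 4 below it, and the log2 fold change was 0.47 among males (adjusted p = 0.0316) against -0.34 among females (adjusted p = 0.247).

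Abcc2 (MRP2), an apical pump for conjugated organic anions, measured 405, 395, 319, 417 and 414 CPM in male controls and 265, 329.9, 327, 367 and 385 in male mutants, and 214, 219, 199, 169.6 and 146 in female controls and 104, 131, 174, 235 and 240.0 in female mutants. The joint change was -0.19 (SE 0.13, adjusted p = 0.301), and groups overlapped in both sexes. Slc47a1 (MATE1), the apical proton-coupled exporter of organic cations, measured 813, 841, 865, 777 and 871 CPM in male controls and 639, 914, 833, 751 and 972 in male mutants, and 435, 469.7, 365, 419.5 and 453 in female controls and 337, 407, 274, 468 and 529 in female mutants. Mutants and controls overlapped in both sexes, with a joint change of -0.06 (SE 0.09, adjusted p = 0.715), or -0.10 without female mutant 4.

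Of the 3 brush border proteins that are not transporters, Vil1 fell. Vil1 (villin), which bundles actin in the microvilli, ranged from 235 to 279 CPM in male controls, 207 to 247 in male mutants, 159 to 193 in female controls and 95.9 to 158 in female mutants, so the female groups did not overlap, and it fell by 18.6% in the joint comparison (log2 fold change -0.30, SE 0.08, adjusted p = 0.00676), a call that held in 10 of 20 fits without 1 mouse. Ggt1, which cleaves glutathione at the cell surface, measured 1227, 1226, 1354, 1170.3 and 1398 CPM in male controls and 1014, 1285, 1202, 1107 and 1418 in male mutants, and 728, 675, 626, 705 and 849 in female controls and 537, 534, 339.9, 594 and 636 in female mutants. The male groups overlapped, 4 of 5 female mutants lay below all female controls, and the joint change of -0.26 (SE 0.09) had an adjusted p of 0.0512. Without female mutant 4 the joint change of Ggt1 was -0.29 (adjusted p = 0.0287). Anpep, aminopeptidase N, measured 125.03, 141, 145, 144 and 179 CPM in male controls and 164, 176, 182, 164 and 204 in male mutants, and 163, 118, 128, 176 and 184 in female controls and 161, 157, 127, 209 and 182 in female mutants. Male mutants exceeded 4 of the 5 male controls, and the changes of 0.27 in males (SE 0.07, adjusted p = 0.0158) and 0.21 jointly (adjusted p = 0.0888) did not pass the threshold by edgeR.

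Other genes of the same apparatus were read from the same fits. Of 11 further brush border enzymes, 4 fell in the joint comparison and none rose, with a median of -0.14: the peptidases Dpep1 (log2 fold change -0.86, SE 0.12, adjusted p = 4.79e-05), Mep1b (log2 fold change -0.69, SE 0.10, adjusted p = 0.000112) and Ace (log2 fold change -0.47, SE 0.08, adjusted p = 0.000316) and the carbonic anhydrase Car4 (log2 fold change -0.50, SE 0.12, adjusted p = 0.00539). Of 13 genes of the microvillus scaffold, such as Ezr and Pdzk1, 0 were DEGs by edgeR in the joint comparison, 7 had an unadjusted p under 0.05, DESeq2 called 2, and the median was -0.06. In males alone edgeR called 2 of the 13, both higher, where 5.25% of all genes were higher. DESeq2 called Cdhr2 and Cdhr5 higher and Pdzk1 lower in males, beside 14.3% of all genes. In females neither test called any of the 13. None of 10 genes of the endocytic machinery was a DEG by edgeR in the joint comparison, 1 had an unadjusted p under 0.05, and DESeq2 called 1. Of all genes in the joint comparison, 37.7% had an unadjusted p under 0.05 by edgeR, and DESeq2 called 20.9%.

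Markers of other cells moved with genotype beside these results. Of 9 markers of injured proximal tubule, 8 rose in the joint comparison, with a median log2 fold change of 2.10. The summed level of the 9 was 1159 to 1451 CPM in male controls, 2164 to 10487 in male mutants, 2354 to 2893 in female controls and 3087 to 11308 in female mutants. Spp1 was the largest part of these sums, with means of 914 and 3776 CPM in male controls and mutants and 2053 and 6263 in female controls and mutants. The sums therefore mostly follow Spp1. Havcr1 (KIM-1), the defining marker of injury, was read in every library, at 7 counts or more, but was near the floor in controls. It ranged from 0.811 to 4.12 CPM in male controls and 36.8 to 345 in male mutants. In females it ranged from 0.382 to 0.662 CPM in controls and 9.59 to 161 in mutants. Of 7 leukocyte markers 5 rose, with sums of 105 to 135 and 178 to 469 CPM in male controls and mutants and 126 to 158 and 142 to 639.8 in female controls and mutants, and of 5 fibroblast markers 4 rose, with sums of 177 to 239.5 and 344 to 1022 CPM in males and 244 to 391 and 401 to 1331 in females. Markers of other nephron segments fell as well, 7 of 8 of the loop and distal convoluted tubule (median -0.71), 5 of 8 of the collecting duct (-0.34) and 4 of 5 of podocytes (-0.56), and of the 10 proximal tubule markers 2 fell, Miox and Keg1, with a median of -0.27. None of 5 endothelial markers was a DEG jointly by edgeR. Of these, 4 had an unadjusted p under 0.05, beside 37.7% of all genes, and DESeq2 called 1, Pecam1, beside 20.9%. Of 4 adrenal markers 1 passed the filter and was no DEG, and Cyp11b2 was at 0 in every mouse, as was the globin gene Hbb-bs. Alas2, which makes heme in red cell precursors and was the erythroid marker that passed the filter, fell in males (log2 fold change -2.19, SE 0.27, adjusted p = 0.000702), in females (log2 fold change -2.11, SE 0.32, adjusted p = 0.00813) and jointly (log2 fold change -2.16, SE 0.22, adjusted p = 3.77e-06), with means of 18.7 and 3.87 CPM in male controls and mutants and 13.5 and 3.05 in female controls and mutants. The part of these cell types in the members' changes was not tested.

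Male and female controls were compared to ask how far the transport genes differ by sex in mice that keep Pkd2. Of 41 members, 21 were DEGs between male and female controls, 10 higher in males and 11 higher in females, where 17.8% of all genes were DEGs, 8.75% higher in males and 9.02% higher in females. Every male control lay above every female control for 11 members and below for 11, beside 9.91% and 14.2% of all genes. The largest differences were in a pair of related carriers that run in opposite directions. Slc7a13, an aspartate and glutamate carrier that also forms the second cystine transporter, measured 1424, 1451, 1534, 1292 and 1433 CPM in male controls and 951, 1157, 1066, 1037 and 1331 in male mutants, and 1.72, 0.818, 1.83, 3.46 and 2.73 in female controls and 1.10, 2.04, 1.75, 1.20 and 2.00 in female mutants. Female libraries held 14 to 58 counts of it, and the level in males was 675 times that in females among controls (log2 fold change 9.40, SE 0.23, adjusted p = 4.18e-11) and 694 times among mutants (log2 fold change 9.44, SE 0.20, adjusted p = 1.35e-09).

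Slc7a12, a carrier of small neutral amino acids, measured 18.6, 12.1, 14.0, 12.3 and 5.62 CPM in male controls and 27.7, 14.9, 19.2, 13.2 and 14.2 in male mutants, and 523, 409, 456, 421 and 235 in female controls and 167, 241, 211, 293 and 232 in female mutants. Every female lay above every male, and male control 5 and female control 5 were the lowest of their groups. The male over female change was -5.15 in controls (SE 0.12, adjusted p = 3.18e-11) and -3.69 in mutants (SE 0.25, adjusted p = 7.97e-06).

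**Figure D3:**
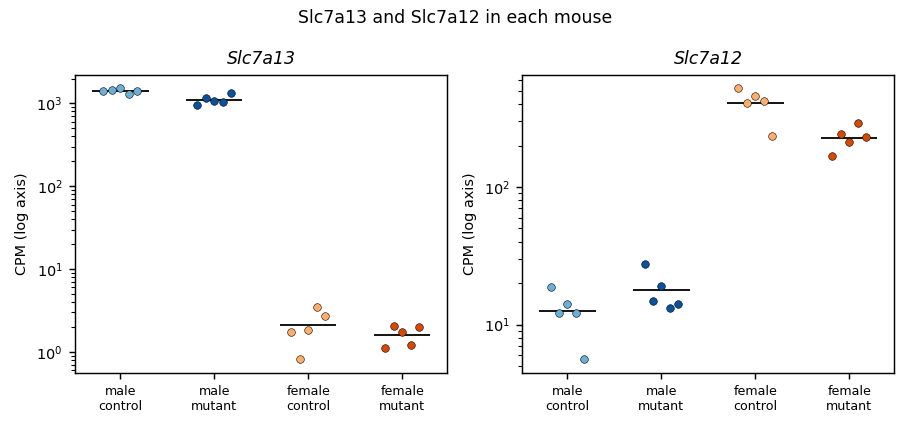
CPM of Slc7a13 and Slc7a12 in each mouse on log axes, by sex and genotype, with group means as lines. Slc7a13 lies between 951 and 1534 CPM in males and between 0.818 and 3.46 in females, and Slc7a12 lies between 5.62 and 27.7 CPM in males and between 167 and 523 in females.

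The other 9 members that were higher in male controls include carriers of organic anions and cations. Slc5a8 was 2.92 times as high in males as in females (log2 fold change 1.55, SE 0.08, adjusted p = 3.45e-08), Abcc2 2.17 times (log2 fold change 1.12, SE 0.12, adjusted p = 3.94e-05), Slc17a3 2.14 times, Slc47a1 1.96 times, Slc17a1 1.95 times, Slc26a1 1.78 times, Ggt1 1.77 times and Vil1 1.43 times, all 8 with groups that did not overlap. Slc1a1 was 1.21 times as high (adjusted p = 0.00788), and this call held in 1 of 10 fits without 1 mouse.

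Higher in female controls, beside Slc7a12, were the pumps Abcc4 (male over female log2 fold change -1.81, SE 0.11, adjusted p = 2.17e-07) and Abcb1a (log2 fold change -1.62, SE 0.12, adjusted p = 1.73e-06), whose groups did not overlap. The remaining 8 had log2 fold changes, male over female, of -0.68 for Slc7a8, -0.62 for Slc5a10, -0.60 for Slc38a3, -0.57 for Slc3a2, -0.44 for Slc6a18, -0.44 for Slc15a2, -0.42 for Slc5a1 and -0.38 for Slc23a1. Slc7a8 and Slc3a2, light and heavy chain of the same basolateral exchanger, were thus both higher in females. The calls of Slc38a3, Slc5a10 and Slc23a1 were lost without the litter term (adjusted p of 0.0280, 0.0169 and 0.0245), and that of Slc15a2 held in 4 of 10 fits without 1 mouse. Of the endocytic receptors none passed the threshold between control sexes by edgeR or DESeq2. By edgeR 3 of 4 had an unadjusted p under 0.05, beside 40.4% of all genes: Lrp2 at -0.26 (adjusted p = 0.0867), Cubn at -0.19 (adjusted p = 0.116) and Dab2 at 0.22 (adjusted p = 0.0505).

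Other lists differed between control sexes too. The nuclear receptors Hnf4g (log2 fold change 0.63, SE 0.11, adjusted p = 0.00121) and Nr1h4 (log2 fold change 0.97, SE 0.10, adjusted p = 1.72e-05) were higher in male controls, and of 11 further brush border enzymes 5 were higher in males, led by the trehalase Treh (log2 fold change 1.43, SE 0.08, adjusted p = 9.37e-08), and 3 in females. Of the proximal tubule markers 4 were higher in males and 1 in females, whereas all 5 endothelial markers, all 5 podocyte markers and 6 of 8 markers of the loop and distal convoluted tubule were higher in females, with medians of -0.45, -0.65 and -0.50. The part of these cell types in the sex differences was not tested.

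Between male and female mutants 11 of 41 members were DEGs, 8 higher in males and 3 higher in females, where 5.42% of all genes were DEGs, 3.59% and 1.84%. Every male mutant lay above every female mutant for 10 members and below for 4, beside 8.28% and 5.06% of all genes. Slc7a13, Slc5a8, Slc17a3, Ggt1, Slc17a1, Slc47a1, Abcc2 and Vil1 were higher in males and Slc7a12, Abcc4 and Slc15a2 in females, and all 11 had been DEGs in the same direction among controls. The count and its split moved with the method: without scaling for composition 16 were DEGs, 8 in each direction, beside 6.58% of all genes. With DESeq2 they were 18, 10 higher in males and 8 in females, beside 13.6%, with all 20 mice in 1 fit 20, 10 in each direction, beside 15.9%, and without female mutant 4 they were 14, beside 9.12%. Leaving out other single mice gave 4 to 16, with 4 without female mutant 1, female mutant 5 or male mutant 5, 5 without male mutant 3, 7 without male mutant 4 and 16 without female mutant 3. The share of all genes in these fits ran from 1.70% without female mutant 1 to 6.84% without female mutant 3. Abcb1a, which had differed among controls, was at -0.41 (SE 0.18, adjusted p = 0.156).

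**Figure D4:**
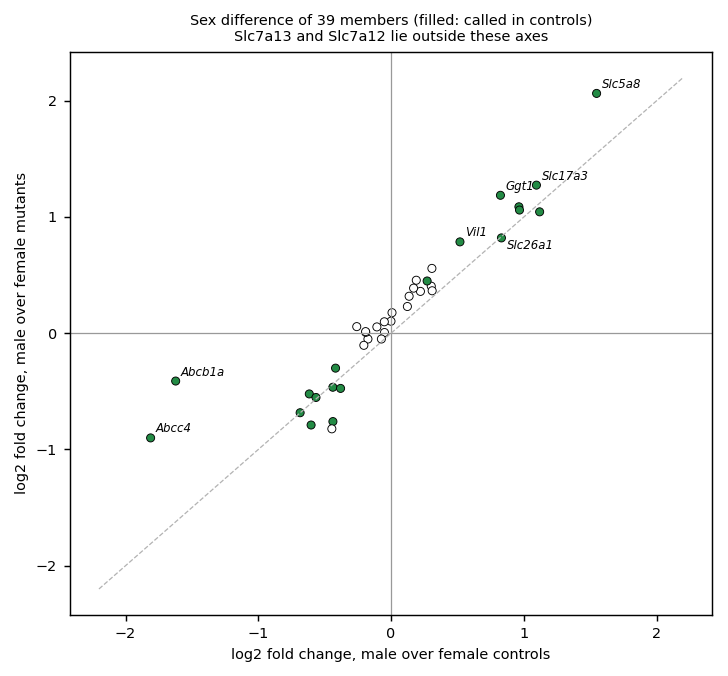
Log2 fold change of males over females among mutants (vertical axis) against that among controls (horizontal axis) for 39 members, with filled points for DEGs among controls and a dashed line where both are equal. Abcb1a and Abcc4 lie above the line, nearer to 0 among mutants than among controls, and Slc7a13 and Slc7a12 lie outside the axes.

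The difference of the genotype change between the sexes was tested by a sex-by-genotype term. No member passed the threshold by edgeR, as 0.00% of all 14820 genes did, and 4 of 42 had an unadjusted p under 0.05 beside 4.17% of all genes. DESeq2 called 2, Abcb1a and Slc7a12, beside 0.121% of all genes. Without female mutant 4, 12 members had an unadjusted p under 0.05, beside 6.95% of all genes, and none was called by edgeR. The term is the male change minus the female change, and it was 1.15 for Abcb1a (SE 0.22, unadjusted p = 6.44e-05, edgeR adjusted p = 0.247), 1.44 for Slc7a12 (SE 0.31, unadjusted p = 0.000214, edgeR adjusted p = 0.267), 0.84 for Abcc4 (SE 0.22, edgeR adjusted p = 0.591) and 0.47 for Slc5a8 (SE 0.21, edgeR adjusted p = 1.00). Slc7a12, Abcc4 and Abcb1a were the 3 members with the largest female excess among controls. Their fitted genotype changes were 0.64, 0.47 and 0.87 in males and -0.78, -0.34 and -0.25 in females, of which that of Abcb1a in males passed the threshold by edgeR. The same control values enter the female excess, the genotype changes and the term, so these are not independent of each other.

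The last comparison asked whether the level of the members goes with kidney size among the 10 mutants, with sex as a term. Slopes are given as the log2 change per 1 percentage point of KBW. By edgeR 0 of 41 members passed the threshold, as 0.00% of all genes did, and 27 had an unadjusted p under 0.05, beside 22.3% of all genes. DESeq2 called 3, Slc5a2, Slc6a19 and Slc5a12, beside 3.95% of all genes. The slope was negative in 38 of 41 members, with a median of -0.62 beside -0.06 over all genes. Female mutant 4, whose library stood apart, also had the smallest kidney of the mutants, and without it 11 members had an unadjusted p under 0.05, beside 16.9% of all genes, and 37 slopes were negative. Without male mutant 1 or female mutant 3 the count was 18, beside 15.9 and 19.3% of all genes. With total counts in place of TMM scaling 17 members had an unadjusted p under 0.05, beside 21.1% of all genes, and the median over all genes moved to 0.11 and that of the members to -0.45. Without a sex term 14 did, beside 15.0%, and 27 slopes were negative.

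Slc5a2 and Slc6a19 had the steepest slopes, both at the apical membrane. Slc5a2 had a slope of -1.70 (SE 0.29, adjusted p = 0.0271), from the 415 CPM of female mutant 4 at a KBW of 0.836% to the 129 CPM of male mutant 1 at 2.15%. Pearson's r and Spearman's rho were computed over the 10 mutants with both measures centred within sex, for the 4 members with the most negative and most positive slopes. As these members were chosen for their slopes in the same mice, the coefficients are a description without a test. For Slc5a2 r was -0.888 and rho -0.903, and r was -0.713 without female mutant 4 and male mutant 1, the mice farthest from the median KBW (n = 8). Slc6a19 had a slope of -1.57 (SE 0.37, adjusted p = 0.0470), with r at -0.784, rho at -0.7455 and r at -0.557 without the same 2 mice. With female mutant 4 alone left out, the slopes were -1.59 for Slc5a2 (SE 0.34, adjusted p = 0.119) and -1.33 for Slc6a19 (SE 0.41, adjusted p = 0.168).

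The lactate cotransporter Slc5a12 and the sodium-proton exchanger Slc9a3 followed with slopes of -1.37 (adjusted p = 0.0509) and -1.37 (adjusted p = 0.0898). Slopes were positive for Slc13a1, Abcc4 and Slc7a12. Slc13a1 had a slope of 0.49 (SE 0.22, adjusted p = 0.206), with r at 0.683 and rho at 0.624, and without the 2 outermost mice r was 0.832. Its slope was 0.75 without female mutant 4 (SE 0.19, adjusted p = 0.131). Abcc4 had a slope of 0.47 (SE 0.31, adjusted p = 0.392), an r of 0.428 and a rho of 0.527, with r at 0.245 without the 2 outermost mice, and its slope was 0.60 without female mutant 4 and -0.65 without the sex term. Slopes of the endocytic receptors were -0.62 for Lrp2, -0.69 for Cubn, -0.38 for Amn and -0.59 for Dab2, and without female mutant 4 they were -0.34, -0.39, -0.30 and -0.35.

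**Figure D5:**
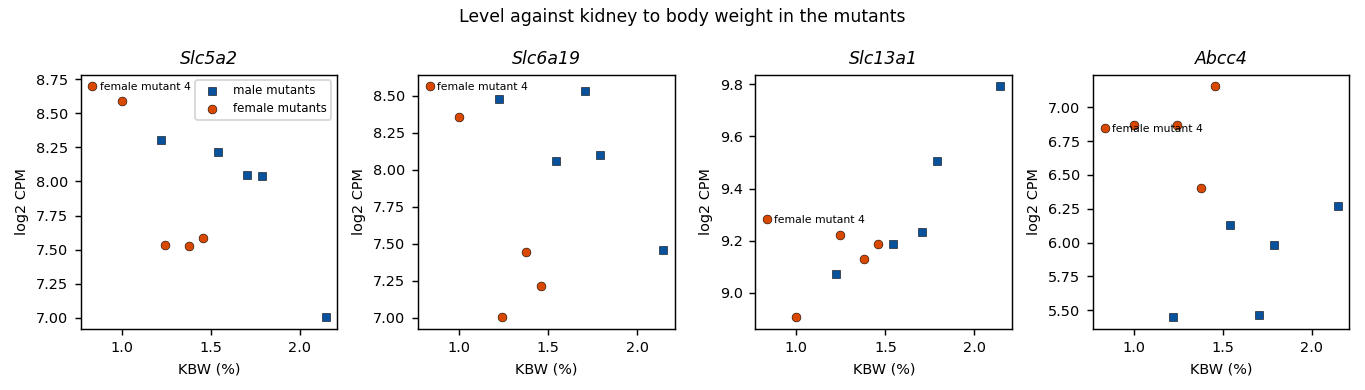
Log2 CPM of Slc5a2, Slc6a19, Slc13a1 and Abcc4 against KBW in the 5 male (squares) and 5 female (circles) mutants, 1 point per mouse. Within each sex Slc5a2 tends to be lower in mutants with larger kidneys. Slc13a1 is highest in the male mutant with the largest kidney, and female mutant 4 sits at the lowest KBW.

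Other lists were read from the same fit. All 10 proximal tubule markers had negative slopes, with a median of -0.91 and 9 at an unadjusted p under 0.05, as did the 11 further brush border enzymes (median -0.51, 6 at an unadjusted p under 0.05) and 12 of the 13 scaffold genes (-0.37, 5), whereas endocytic machinery genes had a median of -0.09. Slopes were positive for all 9 markers of injured tubule (median 2.89), all 7 leukocyte markers (1.85) and all 5 fibroblast markers (1.82). Markers of the loop and distal convoluted tubule had a median slope of -0.72 (5 of 8 at an unadjusted p under 0.05), podocyte markers one of -0.65 (3 of 5) and collecting duct markers one of -0.40 (3 of 8). None of these genes passed the threshold by edgeR, whereas DESeq2 called 3.95% of all genes. Among these lists it called 5 of the proximal tubule markers, 1 further enzyme, 7 injury markers, 3 leukocyte and 2 fibroblast markers, 1 marker each of the loop and distal convoluted tubule, podocytes and collecting duct, and none of the scaffold or endocytic machinery genes. Their part in the slopes of the members was not tested.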

How the data were processed

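The authors trimmed reads with fastp 0.23.2, aligned them to mm10 with STAR 2.7.10b and deposited whole-number read counts per gene, without normalization. The counting tool, annotation and strandedness are not given in the sources used here. For all 20 mice, tests on the counts used edgeR 4.0.16 under R 4.3.3 (TMM scaling, filterByExpr, quasi-likelihood test, Benjamini-Hochberg adjustment over all genes tested, threshold 0.01). Genotypes were compared within each sex and sexes within each genotype with litter (3 litters) as a covariate, and the joint and sex-by-genotype fits used the groups of sex and litter. CPM used TMM library sizes, with a prior count of 2 on the log2 scale. Per the labels, KBW is kidney weight over body weight. A second deposited file holds the series record, without measurements, and was not used. The procedure was tested on simulated data.

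The members and lists were chosen with earlier results of these data known. Values of every mouse are given for the member with the highest mean CPM in each role, the 3 largest rises and falls of the joint comparison, the 3 largest excesses in each sex among controls and the 2 most positive and most negative slopes on KBW. Alternatives were DESeq2 1.42.0 size factors and Wald test, total counts, no filter, no litter or sex term, litter as an added term, all 20 mice in 1 fit and each mouse left out in turn. No 2 libraries were identical. Results on some regulators are not reported here.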

Additional observations from a re-analysis of the deposited data

Results flagged for a closer look

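In 5 of 76 groups of 5 mice, over the 19 members given in full, 1 mouse lay farther from the others than Dixon's test allows at the 95% level, a result that chance gives in about 5% of groups. Slc4a4 measured 995.8 CPM in male control 3, against 1227 to 1263 in the other male controls, and Abcc2 measured 318.7 CPM in the same mouse, against 395.2 to 417.1. Lrp2 measured 2445 CPM in female control 5, against 3143 to 3419 in the other female controls. Abcc4 measured 28.22 CPM in male control 5, against 43.29 to 49.16. Slc5a2 measured 128.5 CPM in male mutant 1, the mouse with the largest kidney, against 262.9 to 315.8 in the other male mutants.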

How the results depend on the processing

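Counts of members called stayed within 1.5 times the reported count under the settings tried, except as follows. DESeq2's Wald test called 13 in males, 4 in females, 18 between the sexes among mutants, 2 for the sex-by-genotype term and 3 for KBW. In the same order it called 14.3, 6.43, 13.6, 0.121 and 3.95% of all genes. In females 1 was called with total counts and 1 without the litter term, beside 0.443 and 1.19% of all genes. All 20 mice in 1 fit gave 4 in females and 20 between the sexes among mutants, beside 5.78 and 15.9%. Without 1 mouse the counts were 3 to 10 in males, 0 to 4 in females, 7 to 14 jointly, 16 to 22 between control sexes and 4 to 16 between mutant sexes, and 0 for the sex-by-genotype term and for KBW. The share of all genes ran from 1.32 to 13.2% in males, 0.0206 to 5.93% in females and 11.6 to 21.0% jointly. It ran from 8.57 to 18.6% between control sexes and 1.70 to 9.12% between mutant sexes. Single members called, or named for the sex-by-genotype term and KBW, gave under settings that kept all mice 307 results on the same side of the threshold, 11 that no longer passed, 4 that newly passed and 1 that changed sign, the slope of Abcc4 on KBW without a sex term (-0.65, adjusted p = 0.502). With total counts the median over all genes was -0.15 between control sexes and -0.21 between mutant sexes, against -0.01 and -0.03. No paired analysis was possible because the replicate numbers only name mice in the order of the labels. Litter, which links mice across groups, was instead a term of the fits by genotype and sex. The median standard error of the members was 0.09 in males and 0.16 in females, which limits the changes that could be called.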
